A study of Mus musculus with 3 samples.

Results

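The genes described here are 33 genes of glycolysis and of the response to low oxygen, out of 33696 genes counted in CD8+ T cells from mouse melanomas. They were chosen by name, as 4 glucose and lactate transporters, 14 glycolytic enzymes, 2 bifunctional regulators of phosphofructokinase, *Hif1a* and 12 genes known to be induced in hypoxia, and all 33 were found in the count tables. The T cells were Thy1.1+ pmel cells, whose transgenic T cell receptor recognizes the melanoma antigen gp100. They were activated with gp100 peptide, preconditioned with cytokine in culture and transferred into irradiated C57BL/6 mice bearing B16F10 melanomas. The sIL-2 group received cells preconditioned with sIL-2, an engineered IL-2 with high affinity for IL-2Rβ, and then sIL-2 *in vivo*. The 2/21-trikine group (IL-2/21-Trikine in the study) received cells preconditioned with a fusion of sIL-2 and a binder that recruits IL-21Rα without signaling by itself, and then the same fusion *in vivo*. The sIL-2 + IL-21 group received cells preconditioned with both cytokines, and by the study's methods these mice received sIL-2 alone *in vivo*, while the sample label gives sIL-2 + IL-21 as the treatment. Whether this group differed from the sIL-2 group in the culture step only was not settled. Tumors were taken on day 18 after tumor injection under the low dose regimen, and live Thy1.1+CD8+ cells were sorted. The methods describe the C57BL/6 mice as a few weeks old at purchase, and the number of mice behind each library is not given in the sources used here for this experiment. A single library was made per group, so there were no replicates, no test between groups was possible, and all intervals are 95% intervals that cover counting error only.

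Glycolysis turns glucose into pyruvate, and in activated T cells much of that pyruvate is reduced to lactate and exported. Most of its enzymes and transporters are among the known targets of hypoxia-inducible factor 1, whose α subunit (encoded by *Hif1a*) is marked for degradation by oxygen-dependent prolyl hydroxylases and accumulates when oxygen is scarce. T cell receptor and cytokine signals also raise *Hif1a* expression and glycolysis at normal oxygen, through mTORC1 and MYC. For this reason the transcripts below are grouped by role, with the enzymes that T cells use in growth kept apart from the targets known mainly from hypoxia.

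The factor binds a short core in DNA, which was searched as ACGTG and GCGTG on both strands. Promoter sequences were available for 31 of the 33 genes in a RefSeq table of build GRCm38.p6, as 49 windows from 250 bases before to 50 bases after a start site. The other two genes, *Slc2a3* and *Ndrg1*, are named only. The 4 promoters printed here are those of *Bnip3*, *Egln3* and *Ankrd37*, which in the sIL-2 library were more than 3 times higher in cells with other hypoxia targets (described below, with *Vegfa* left out for its few UMIs), and of *Ldha*, the enzyme window with the most matches. Capitals mark matches to the core on either strand, and a CACGTG counts as 2 overlapping matches.
Bnip3 (chr7:138909457-138909756, minus strand): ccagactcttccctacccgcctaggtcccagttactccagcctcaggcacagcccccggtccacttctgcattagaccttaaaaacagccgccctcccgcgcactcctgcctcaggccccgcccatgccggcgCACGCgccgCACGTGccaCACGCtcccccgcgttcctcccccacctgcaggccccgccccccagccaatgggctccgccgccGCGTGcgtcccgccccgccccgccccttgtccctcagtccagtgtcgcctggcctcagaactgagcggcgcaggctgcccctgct
Egln3 (chr12:54203825-54204124, minus strand): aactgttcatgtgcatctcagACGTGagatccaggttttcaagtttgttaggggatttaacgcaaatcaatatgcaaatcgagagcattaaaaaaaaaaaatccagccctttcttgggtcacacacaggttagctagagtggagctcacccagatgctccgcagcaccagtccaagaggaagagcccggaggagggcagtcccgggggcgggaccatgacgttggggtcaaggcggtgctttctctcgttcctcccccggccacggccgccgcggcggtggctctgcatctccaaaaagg
Ankrd37 (chr8:45999801-46000100, minus strand): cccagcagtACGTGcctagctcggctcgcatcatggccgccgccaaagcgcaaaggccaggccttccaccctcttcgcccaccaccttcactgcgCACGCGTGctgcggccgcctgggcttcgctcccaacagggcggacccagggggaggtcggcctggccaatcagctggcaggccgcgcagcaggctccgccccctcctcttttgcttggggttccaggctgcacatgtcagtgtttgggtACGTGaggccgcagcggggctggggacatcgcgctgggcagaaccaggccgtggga
Ldha (chr7:46845554-46845853, plus strand): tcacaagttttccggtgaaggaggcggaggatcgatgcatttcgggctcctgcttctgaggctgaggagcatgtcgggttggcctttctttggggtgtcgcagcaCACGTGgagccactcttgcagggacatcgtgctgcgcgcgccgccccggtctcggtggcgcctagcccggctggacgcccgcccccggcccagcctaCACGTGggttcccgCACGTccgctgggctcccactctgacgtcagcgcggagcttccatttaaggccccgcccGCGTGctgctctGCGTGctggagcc
The *Bnip3* window held 5 matches, the *Egln3* window 1, the *Ankrd37* window 4 and the *Ldha* window 7. Over the 49 windows of the listed genes, 77.6% held at least 1 match, against 64.1% of 8961 windows of the genes tested below and 43.8% of all 32851 windows in the table. For ACGTG alone the shares were 55.1%, 26.8% and 19.6%. By role, at least 1 match to either core was found in 75% of enzyme windows and 72.2% of hypoxia target windows. All windows of the other listed genes held a match. Windows of 1 gene can overlap, and a match is a description of these letters, not evidence of binding.

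Quality limits kept 7760 cells with sIL-2, 13299 with 2/21-trikine and 9798 with sIL-2 + IL-21, holding 130200802, 166772854 and 168041089 UMIs, where a UMI marks a captured RNA molecule. The median number of UMIs per cell was 12882.5, 10254 and 14055.5 in the same order, and cells under 2000 UMIs made up 3.43%, 13.3% and 3.72%. At most 0.418% of the cells of the smaller library shared a barcode with another library. The 7 markers of CD8 T cells (such as *Cd3e*, *Cd8a* and *Trac*) were all detected and summed to between 4097 and 5034 counts per 1000000 UMIs (CPM). The 8 myeloid markers summed to between 13.2 and 18.9 CPM and the 5 melanoma markers to between 2.22 and 8.82 CPM. The 4 hemoglobin genes stood apart, at 68.7 CPM with sIL-2 against 0.120 CPM and 0.476 CPM with 2/21-trikine and sIL-2 + IL-21, and the part of such other-cell RNA in the results below was not tested except where a value without those cells is given.

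Levels are CPM from the UMIs summed over a library, and the values of each gene are given in the order sIL-2, 2/21-trikine, sIL-2 + IL-21 unless stated. CPM depends on how well each transcript is captured, so levels are compared between libraries and not between genes. Ratios are log2 ratios of CPM. A gene was called lower or higher when its log2 ratio passed 0.5 in size and its interval left out 0, over the 8824 genes with a mean of at least 5 CPM. Of the 33 genes, 30 were at or above that level, and *Pfkm*, *Pfkfb4* and *Vegfa* were below it. Across the 30 genes, 11 were lower with 2/21-trikine than with sIL-2, where 5.81% of all genes tested were lower. Against sIL-2 + IL-21, 6 of 30 were lower with 2/21-trikine, where 3.58% of all genes were lower. For sIL-2 + IL-21 against sIL-2, 5 of 30 were lower, where 10.1% of all genes were lower. None of the 30 genes was higher in any of these comparisons, while 2.88%, 3.51% and 5.79% of all genes were. The median log2 ratio of the 30 genes was -0.38, -0.35 and -0.13 in these comparisons, against -0.08, 0.00 and -0.08 over all genes tested. The comparisons share libraries and are not independent of each other. The genes were chosen with earlier results of these data known, so their shares beside those of all genes are a description only.

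**Figure D1:**
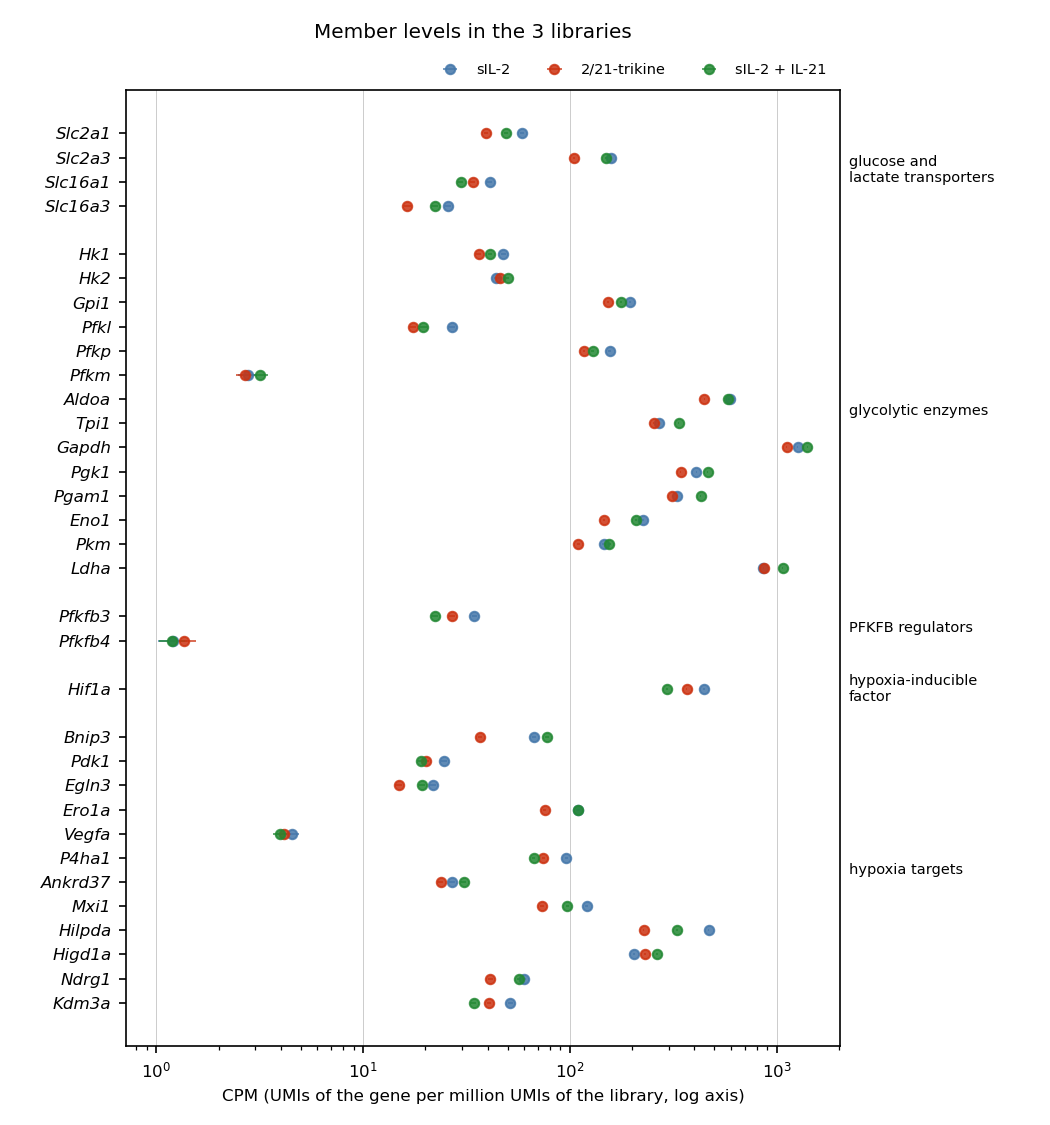
Level of each of the 33 genes in each library, as CPM on a log axis, grouped by role, with 95% counting intervals (mostly narrower than the points). The 2/21-trikine points are lowest for 12 of 14 enzymes, and the sIL-2 points are highest for 4 of 4 transporters and 8 of 12 hypoxia targets. These counts include Pfkm and Vegfa, which are under 5 CPM and whose lowest and highest places, respectively, lie within counting error. The share of all genes with such an order was not computed.

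Transcripts of each of the 4 glucose and lactate transporters were highest with sIL-2. *Slc2a1*, which encodes the glucose transporter GLUT1, was at 58.6, 39.4 and 49.0 CPM. The 2/21-trikine library was the lowest, with a log2 ratio of -0.57 [-0.62, -0.53] against sIL-2 and -0.32 [-0.36, -0.27] against sIL-2 + IL-21. *Slc2a3*, which encodes the high-affinity glucose transporter GLUT3, was at 158, 105 and 149.7 CPM, so that sIL-2 and sIL-2 + IL-21 lay close together and 2/21-trikine was lower than each by more than 0.5 (-0.59 and -0.51). *Slc16a3*, which encodes the lactate exporter MCT4, was at 25.7, 16.4 and 22.3 CPM, with a log2 ratio of -0.65 [-0.72, -0.57] for 2/21-trikine over sIL-2. *Slc16a1*, which encodes the lactate carrier MCT1, had another order, at 41.0, 33.9 and 29.7 CPM, and was lowest with sIL-2 + IL-21. The summed level of the 4 transporters was 283, 194 and 251 CPM. Of the 4, 3 were called lower with 2/21-trikine than with sIL-2, where 5.81% of all genes tested were.

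Enzymes of the upper part of glycolysis, which spends ATP to make triose phosphates, were mostly highest with sIL-2. *Hk1* (hexokinase 1) was at 47.7, 36.3 and 41.1 CPM. The other hexokinase listed, *Hk2*, which is induced in activated T cells, was at 44.0, 46.0 and 49.96 CPM and was among the 2 enzymes that were not lowest with 2/21-trikine. *Gpi1* (glucose-6-phosphate isomerase) was at 195.5, 152 and 177 CPM. *Pfkl* and *Pfkp*, the liver-type and platelet-type phosphofructokinases that commit glucose to glycolysis, were at 27.0, 17.5 and 19.6 CPM and at 156, 117 and 129 CPM. *Pfkl* had the lowest log2 ratio of the enzymes for 2/21-trikine over sIL-2, at -0.63 [-0.70, -0.56]. *Pfkm*, the muscle-type form, was near the detection limit at 2.76, 2.68 and 3.18 CPM. *Aldoa* (aldolase A) was at 594, 446 and 584 CPM, so that 2/21-trikine was lower than both other libraries by a log2 ratio of about the same size (-0.41 and -0.39). A second identifier with the symbol *Aldoa* held at most 0.0952 CPM and was left out.

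Enzymes of the lower part, which yields ATP and pyruvate, were mostly highest with sIL-2 + IL-21. *Tpi1* (triose phosphate isomerase, at the entry to this part) was at 269, 254 and 336 CPM, and *Gapdh* (glyceraldehyde-3-phosphate dehydrogenase) at 1265, 1119 and 1405 CPM. *Pgk1* and *Pgam1*, which encode the next enzymes of the path (phosphoglycerate kinase and phosphoglycerate mutase), were at 409, 343 and 463 CPM and at 329.7, 313 and 428 CPM. *Pgam1* had the highest ratio of the enzymes for sIL-2 + IL-21 over sIL-2, at 0.38 [0.36, 0.40]. *Eno1* (enolase 1) departed from its neighbors in the path. It was at 226, 146 and 209 CPM, highest with sIL-2, and was called lower with 2/21-trikine in both comparisons (-0.62 and -0.51). The near-identical copy *Eno1b*, which could take some of its reads, held between 2.73 and 3.66 CPM. *Pkm* (pyruvate kinase) was at 146, 109.7 and 155 CPM, and its ratio for 2/21-trikine over sIL-2 + IL-21 lay at the limit of the call (-0.50). *Ldha*, which encodes the lactate dehydrogenase subunit that turns pyruvate into lactate, was at 859.8, 865 and 1071 CPM. Its sIL-2 and 2/21-trikine levels did not differ beyond their counting error, with a log2 ratio of 0.01 [-0.00, 0.02].

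In sum, the 14 enzymes held 4571 CPM with sIL-2, 3968 CPM with 2/21-trikine and 5071 CPM with sIL-2 + IL-21. The 2/21-trikine sum was 0.868 [0.865, 0.871] of the sum for sIL-2 and 0.782 [0.780, 0.785] of the sum for sIL-2 + IL-21. *Gapdh* and *Ldha* together gave the largest part of these sums, with 27.7%, 28.2% and 27.7% of the enzyme UMIs for *Gapdh* and 18.8%, 21.8% and 21.1% for *Ldha*. The median log2 ratio over the 13 enzymes tested was -0.36 for 2/21-trikine over sIL-2 and -0.33 for 2/21-trikine over sIL-2 + IL-21. In each of these, 2 of 13 were called lower, where 5.81% and 3.58% of all genes tested were. All 13 had a negative ratio against sIL-2 + IL-21, where 4365 of the 8824 genes tested did. Against sIL-2, 11 of 13 had a negative ratio, where 5502 of the 8824 genes did. For sIL-2 + IL-21 over sIL-2, 7 enzymes were above 0 and 6 below 0, where 3559 and 5265 of all genes tested were. The enzyme median was 0.09 in that comparison, with no call. This median turned to -0.045 without cells holding a *Mki67* UMI and was 0.027 with each cell weighted equally, so its direction was not stable.

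The regulators of phosphofructokinase set the level of its activator fructose-2,6-bisphosphate. *Pfkfb3*, the form with the strongest kinase activity, was at 34.4, 26.9 and 22.2 CPM and was called lower with sIL-2 + IL-21 than with sIL-2, at -0.63 [-0.70, -0.57]. *Pfkfb4* was at 1.21, 1.37 and 1.20 CPM, too low to tell the libraries apart.

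**Figure D2:**
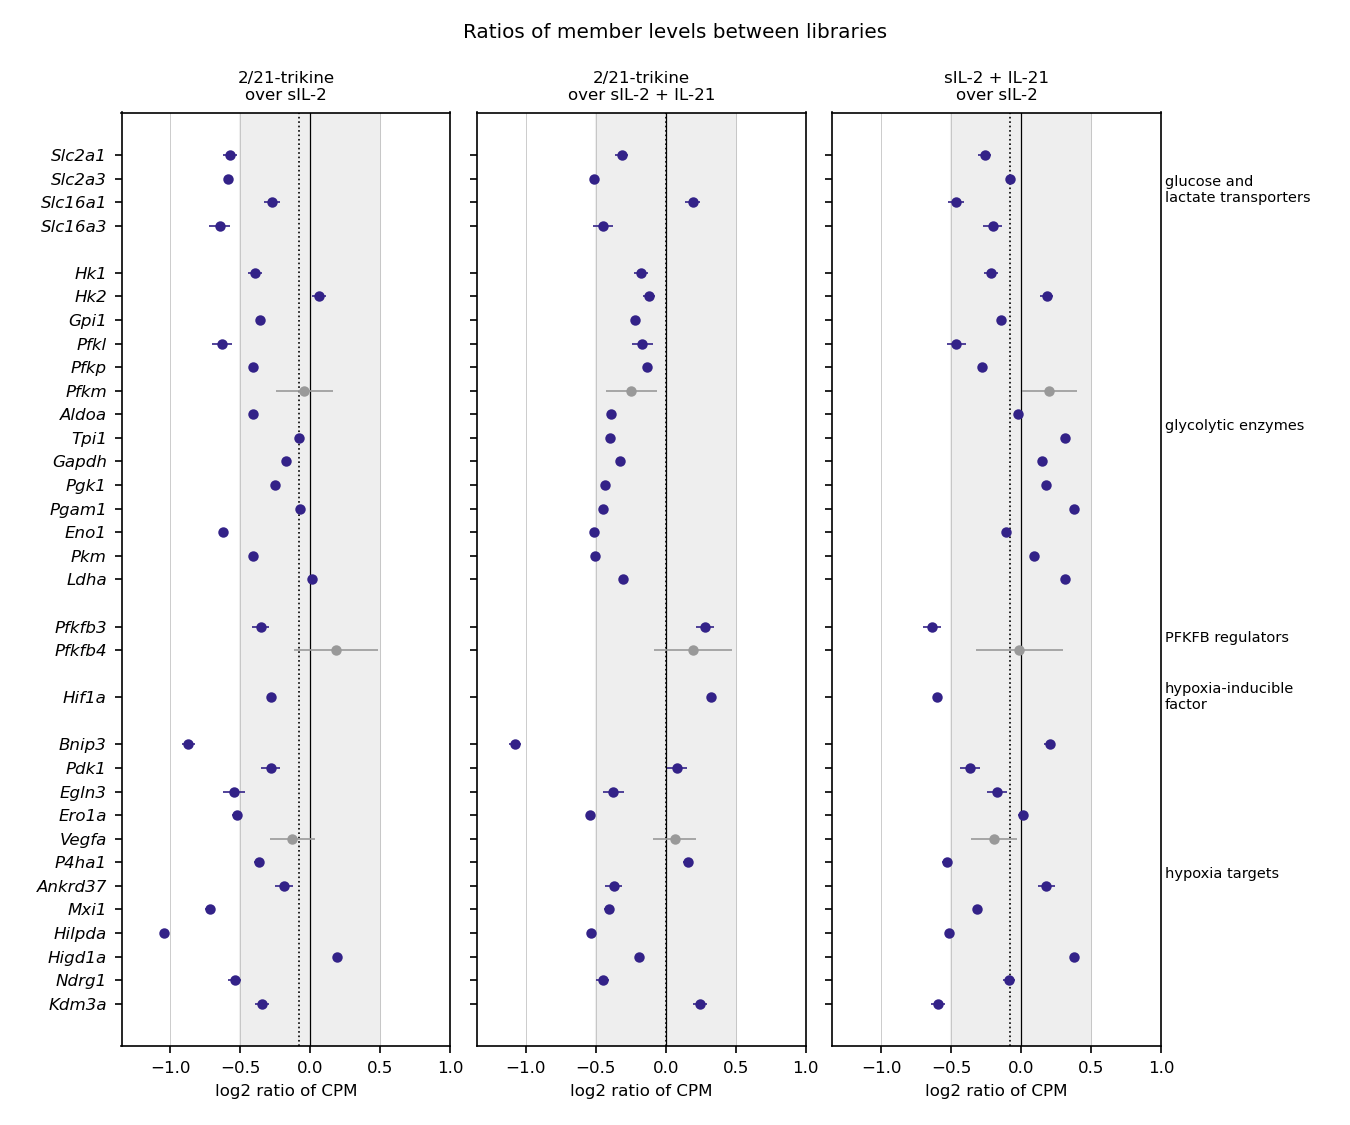
Log2 ratio of CPM for each gene in each pair of libraries, with 95% counting intervals. Gray points are the 3 genes under 5 CPM, the gray band spans ratios within 0.5, and the dotted line is the median of all genes tested. In the left panel 11 genes lie below the band, most of them transporters and hypoxia targets, and in the right panel the enzymes lie on both sides of 0.

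*Hif1a* itself had the same order of libraries as *Pdk1*, *Vegfa*, *P4ha1* and *Kdm3a*, and not that of the other hypoxia targets. It was at 446 CPM with sIL-2, 368 CPM with 2/21-trikine and 294 CPM with sIL-2 + IL-21, each apart from the others beyond counting error. The library with the most enzyme UMIs, sIL-2 + IL-21, was thus the lowest in *Hif1a*, with a log2 ratio of -0.60 [-0.62, -0.58] against sIL-2. 2/21-trikine was above sIL-2 + IL-21 by 0.32 [0.30, 0.34]. Activity of the factor is set largely at the protein level, which these counts do not measure.

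Among the 12 hypoxia targets, 6 of the 11 tested were called lower with 2/21-trikine than with sIL-2, where 5.81% of all genes tested were. *Hilpda*, which encodes a lipid droplet protein that inhibits triglyceride breakdown, had the lowest ratio of all 33 genes in this comparison. It was at 469, 227 and 329 CPM, a log2 ratio of -1.05 [-1.07, -1.03] for 2/21-trikine over sIL-2, or a level 2.07 times higher with sIL-2. *Bnip3*, which encodes a mitochondrial protein that promotes mitophagy, was at 67.3, 36.8 and 77.5 CPM. Its levels in the other libraries lay near each other, and 2/21-trikine was lower than sIL-2 by 0.87 and lower than sIL-2 + IL-21 by 1.08, the lowest ratio of any listed gene in that comparison. *Mxi1*, which encodes a MAX partner that opposes MYC, was at 120.5, 73.4 and 97.1 CPM, and *Ndrg1*, a stress response gene, at 60.0, 41.3 and 56.5 CPM. *Egln3*, which encodes an oxygen-sensing prolyl hydroxylase that acts on the factor itself, was at 21.7, 14.8 and 19.2 CPM. *Ero1a*, an oxidase of disulfide bond formation in the endoplasmic reticulum, was at 109, 75.7 and 110.1 CPM, and the highest pair, sIL-2 + IL-21 and sIL-2, were alike within counting error (0.01 [-0.02, 0.04]).

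Like *Hif1a*, 4 other targets were lowest with sIL-2 + IL-21. *P4ha1* (collagen prolyl 4-hydroxylase) was at 96.3, 74.5 and 66.7 CPM and *Kdm3a* (a histone H3K9 demethylase) at 51.6, 40.5 and 34.2 CPM, and these were called lower with sIL-2 + IL-21 than with sIL-2 (-0.53 and -0.59). *Pdk1*, the kinase that restrains pyruvate entry into mitochondria, was at 24.6, 20.2 and 19.1 CPM. *Vegfa*, the angiogenic growth factor, was at 4.54, 4.15 and 3.97 CPM, with intervals that overlap between neighbors. *Ankrd37* was at 27.0, 23.7 and 30.6 CPM, and *Higd1a*, which encodes a protein of the inner mitochondrial membrane, at 204, 232 and 264 CPM. *Higd1a* was the target with the highest ratio for 2/21-trikine over sIL-2, at 0.19 [0.16, 0.21]. The median ratio of the 11 targets was -0.53 for 2/21-trikine over sIL-2, -0.37 for 2/21-trikine over sIL-2 + IL-21 and -0.17 for sIL-2 + IL-21 over sIL-2. In these comparisons 6, 3 and 3 targets were called lower, where 5.81%, 3.58% and 10.1% of all genes tested were.

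The summed levels of the enzymes and the hypoxia targets differed in the place of sIL-2 + IL-21. The 12 hypoxia targets summed to 1255 CPM with sIL-2, 864 CPM with 2/21-trikine and 1108 CPM with sIL-2 + IL-21. Relative to sIL-2, sIL-2 + IL-21 held 1.11 [1.11, 1.11] times the enzyme UMIs and 0.883 [0.877, 0.888] times the hypoxia target UMIs, while 2/21-trikine held 0.868 times and 0.688 [0.683, 0.693] times. *Hilpda* had a large part in the target sum, with 37.4%, 26.3% and 29.7% of its UMIs. In cells thinned to 2000 UMIs, the other 11 targets summed to 788.9, 644 and 747 CPM, so the order of the libraries was kept without *Hilpda*.

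Wider lists of the same pathways had medians nearer 0 than the listed genes when 2/21-trikine was compared with sIL-2. Of 43 further genes of glucose use, 25 were tested, with a median log2 ratio of -0.02 for 2/21-trikine over sIL-2, 2 lower and 1 higher, where 5.81% of all genes tested were lower and 2.88% higher, so these counts were near the background. Lower were *Gpd2* (mitochondrial glycerol-3-phosphate dehydrogenase, 59.3, 40.2 and 61.1 CPM) and *Aldoc* (aldolase C, 12.8, 8.87 and 15.5 CPM). *Eno3* (muscle enolase) was higher, at 5.78, 9.87 and 10.6 CPM, opposite to *Eno1*. Of 40 further genes of the HIF system and the hypoxia response, 23 were tested, with a median of -0.19 in the same comparison, 3 lower and none higher, against the same background. These were *Epas1*, which encodes HIF-2α and had the lowest ratio of the list (16.4, 8.02 and 13.3 CPM, -1.03), *Plod2* (34.1, 22.7 and 24.0 CPM) and *Nfil3* (50.3, 34.1 and 41.6 CPM). *Ddit4*, an inhibitor of mTORC1 induced by hypoxia, was at 66.9, 54.4 and 90.4 CPM and was lower with 2/21-trikine than with sIL-2 + IL-21. *Gbe1* and *Zfp395* were lower with sIL-2 + IL-21 than with sIL-2 (-0.52 and -0.54). Of 18 regulators around MYC and mTORC1, 15 were tested, with 1 lower and none higher for 2/21-trikine over sIL-2, near the background. *Myc* was at 105, 108 and 67.6 CPM, lowest in the library with the most enzyme UMIs.

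Enzyme levels depended on how many UMIs a cell held, and the libraries differed in that respect. In cells with 5000 to 10000 UMIs the 14 enzymes summed to 3375 [3348, 3403] CPM with sIL-2, 3339 [3318, 3360] CPM with 2/21-trikine and 3362 [3335, 3389] CPM with sIL-2 + IL-21, and these values overlapped. In cells with 20000 or more UMIs they summed to 4984, 4301 and 5678 CPM, in the same order of libraries as over all cells. That order was also found in cells with 10000 to 20000 UMIs (4426, 3983 and 4607 CPM). In cells with 2000 to 5000 UMIs they summed to 3077 [2956, 3202], 2859 [2800, 2919] and 2773 [2702, 2845] CPM, with sIL-2 the highest. In cells with 500 to 2000 UMIs the order was another, with 2241 [2079, 2413] CPM for sIL-2, 2901 [2821, 2983] CPM for 2/21-trikine and 2497 [2335, 2668] CPM for sIL-2 + IL-21, so that 2/21-trikine was the highest there. These shallow cells are left out wherever cells were thinned. Cells with 20000 or more UMIs made up 26.6%, 17.3% and 31.5% of the libraries. The hypoxia targets were highest with sIL-2 and lowest with 2/21-trikine in each of the 5 depth bins examined. In cells with 5000 to 10000 UMIs they summed to 1280.2, 985 and 1035 CPM, and in cells with 20000 or more UMIs to 1188, 799 and 1129.7 CPM. *Hif1a* ran opposite to the enzymes, from 585, 473 and 458 CPM in cells with 5000 to 10000 UMIs to 359, 293 and 237 CPM in cells with 20000 or more.

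To score single cells at equal depth, each cell was thinned to 2000 UMIs, which left 7494, 11524 and 9434 cells and dropped 266, 1775 and 364 shallower ones. A cell held a mean of 8.33 ± 5.43 (SD over cells) enzyme UMIs with sIL-2, 7.46 ± 4.53 with 2/21-trikine and 9.05 ± 5.25 with sIL-2 + IL-21, with medians of 7, 7 and 8. For the hypoxia targets the means were 2.58 ± 2.47, 1.81 ± 1.79 and 2.19 ± 1.95. Differences between libraries were thus smaller than these SDs, which include the counting error of 2000 UMIs per cell as well as differences between cells. No hypoxia target was detected in 16.2%, 23.2% and 17.2% of cells. The 10% of cells with the most hypoxia target UMIs held 31.2%, 31.3% and 29.2% of these UMIs. No cell type that should lack these genes was present in number, so the share of cells with a UMI from free RNA could not be given.

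*Mki67*, which marks proliferating cells, had a UMI in 9.62%, 14.9% and 18.8% of thinned cells, and in 24.3%, 29.7% and 44.3% of cells before thinning. Cells with a *Mki67* UMI held 1.04 [1.011, 1.06] times the enzyme level of cells without it with sIL-2, 0.985 [0.966, 1.003] times with 2/21-trikine and 1.10 [1.08, 1.12] times with sIL-2 + IL-21. Before thinning these ratios were 1.09, 1.08 and 1.17, so the direction with 2/21-trikine depended on depth. The intervals of ratios between sets of cells, here and below, leave out the variation between cells of a library. No enzyme was called higher or lower between the 2 sets of cells in any library, while 11.8%, 13.9% and 11.0% of all genes were called higher and 5.08%, 3.77% and 4.58% lower in cells with *Mki67*. Hypoxia targets were lower in cells with *Mki67*, at 0.748 [0.708, 0.790], 0.783 [0.751, 0.817] and 0.883 [0.851, 0.916] times. Most of this was *Hilpda*, the only listed gene called in all 3 libraries, with log2 ratios of -0.89, -0.96 and -0.54, the last of which was -0.47 and not called before thinning. Without *Hilpda* the fold of the other targets was 0.886, 0.9001 and 0.979. *Hif1a* was also lower in cells with *Mki67* (0.697, 0.918 and 0.825 times), and was called lower with sIL-2 and in neither other library.

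**Figure D3:**
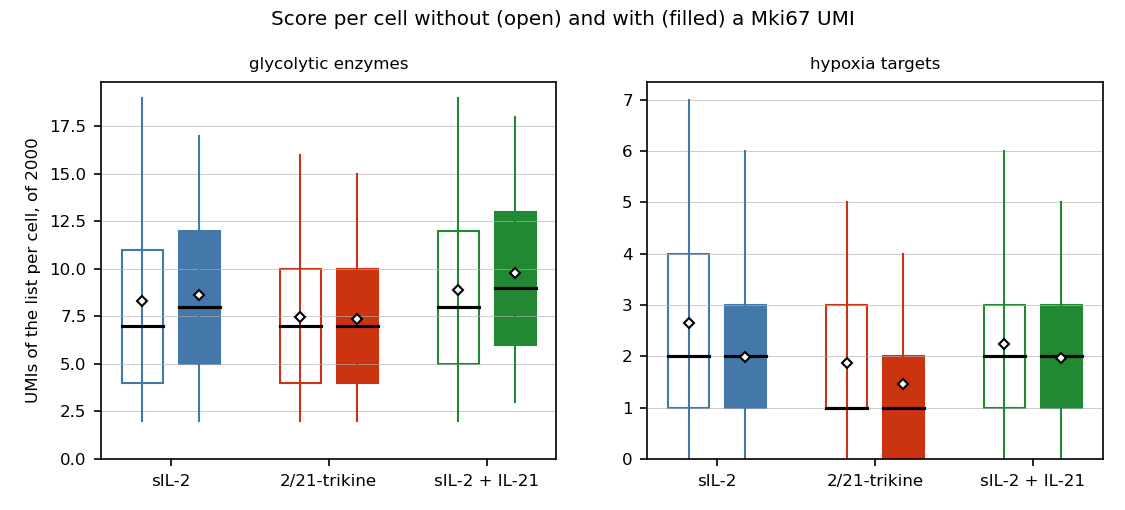
UMIs of the 14 enzymes (left) and of the 12 hypoxia targets (right) per cell of 2000 UMIs, in cells without (open) and with (filled) a Mki67 UMI. Boxes span the quartiles, black lines are medians, thin lines hold all but the lowest and highest 5% of cells, and diamonds are means. For hypoxia targets the mean is lower in cells with Mki67 in each library, and for enzymes the boxes overlap almost fully.

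The lower enzyme and hypoxia target levels with 2/21-trikine than with sIL-2 were present among cells with and among cells without *Mki67*. Among cells with *Mki67*, 2/21-trikine held 0.855 [0.829, 0.881] times the enzyme level of sIL-2, and among cells without it 0.901 [0.891, 0.910] times. For hypoxia targets the values were 0.742 [0.695, 0.792] and 0.709 [0.694, 0.724]. Hypoxia targets in cells with *Mki67* did not differ between sIL-2 + IL-21 and sIL-2 beyond counting error (0.998 [0.938, 1.06]), while in cells without it they were 0.846 [0.828, 0.864] times. *Hif1a* in cells with *Mki67* was at 371, 380.0 and 307 CPM, so that 2/21-trikine and sIL-2 did not differ beyond counting error there (1.02 [0.926, 1.14] times). In cells without *Mki67* it was at 532, 414 and 372 CPM, and 2/21-trikine was lower than sIL-2.

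Other markers of T cell state were compared in the same manner. Summed enzyme levels were lower in cells with a UMI of *Tcf7*, which encodes the TCF-1 factor of stem-like T cells, at 0.770, 0.822 and 0.658 times those of cells without it. Not all single enzymes were, such as *Hk2* (1.12, 0.934 and 0.982 times) and *Pfkl* (1.05, 0.992 and 0.904 times), with intervals that included 1. The enzyme sums were also lower in cells with *Ifit3*, an interferon-induced gene (0.759, 0.766 and 0.624 times). Higher summed enzyme levels were found with *Havcr2*, which encodes the inhibitory receptor TIM-3 (1.20, 1.17 and 1.08 times), with *Gzmc*, which encodes granzyme C (1.27, 1.16 and 1.38 times), and with *Mt1*, which encodes a metallothionein (1.42, 1.36 and 1.49 times). With *Gzmc*, *Hk2* lay below 1 in each library (0.852, 0.913 and 0.910 times), with intervals that included 1. *Pfkp* was 0.889 times with sIL-2, below 1 beyond counting error, and 1.08 and 1.07 times with 2/21-trikine and sIL-2 + IL-21. *Il2ra*, the IL-2 receptor α chain, went with slightly lower summed enzyme levels (0.960, 0.972 and 0.915 times). *Hk2* went the other way with *Il2ra*, above 1 beyond counting error in each library (1.26, 1.54 and 1.36 times). The summed hypoxia targets lay on the same side of 1 as the enzymes for *Tcf7* (0.853, 0.920 and 0.826 times), *Havcr2* (1.23, 1.24 and 1.15 times) and *Mt1* (1.23, 1.19 and 1.28 times). Not all single targets did, such as *Mxi1* with *Tcf7* (1.03, 1.14 and 1.02 times, with intervals that included 1). *Hilpda* was 1.24, 1.39 and 1.28 times with *Havcr2*. With *Mt1* it was 1.015, 0.887 and 0.962 times, while *Bnip3* was 2.74, 2.58 and 2.95 times. For *Gzmc* the ratios of the summed targets lay on both sides of 1, at 1.02, 0.935 and 1.11 times. Here *Hilpda* was below 1 in each library (0.922, 0.709 and 0.896 times), while *Bnip3* was above 1 (1.73, 1.52 and 2.21 times). For *Ifit3* the hypoxia targets were 0.859, 1.002 and 0.927 times, with intervals that included 1 outside the sIL-2 library. *Hilpda* alone was 0.872, 1.27 and 1.13 times with *Ifit3*. For *Il2ra* the targets were 1.11, 1.08 and 1.007 [0.980, 1.04] times, above 1 beyond counting error with sIL-2 and 2/21-trikine. *Hilpda* had a large part in this, at 1.36 and 1.40 times in these libraries. Other targets lay on both sides of 1 there, such as *Ndrg1* (1.33 and 1.19 times) and *Bnip3* (0.807 and 0.773 times). Sums without *Hilpda* were not taken for these markers, so a difference of the other targets from the enzymes was not tested. *Hif1a* was higher in cells with *Tcf7* (1.12, 1.10 and 1.29 times) and lower in cells with *Gzmc* (0.793, 0.865 and 0.742 times), the reverse of the summed enzymes.

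**Figure D4:**
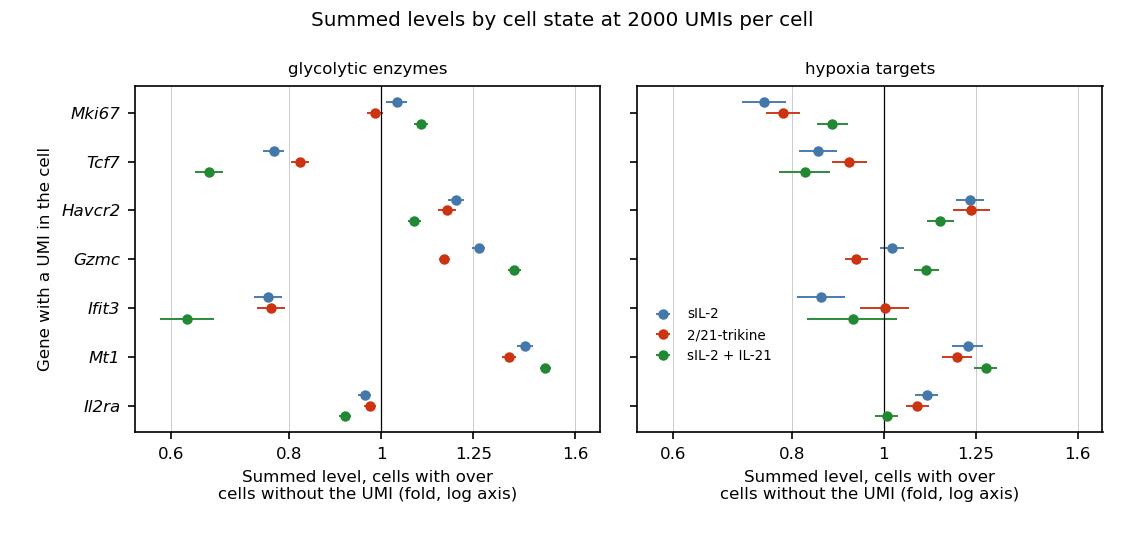
Ratio of the summed level of the 14 enzymes (left) and the 12 hypoxia targets (right) in cells with over cells without a UMI of each gene on the vertical axis, at 2000 UMIs per cell, with 95% counting intervals on a log axis. Mt1, Gzmc and Havcr2 lie above 1 for the enzymes in each library, and Tcf7 and Ifit3 lie below 1.

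Some of these markers differed in frequency between libraries. A *Mt1* UMI was found in 14.9%, 15.3% and 41.5% of thinned cells and a *Gzmc* UMI in 38.1%, 40.5% and 69.6%. Among cells without *Mt1*, the enzyme level was 3922, 3533 and 3764 CPM, so that sIL-2 + IL-21 fell from the highest place to 0.960 [0.947, 0.972] times sIL-2. Among cells with *Mt1* it was 5559, 4812 and 5601 CPM, with sIL-2 + IL-21 and sIL-2 alike within counting error (1.007 [0.988, 1.03]). Among cells without *Gzmc* it was likewise below sIL-2 (0.947 [0.931, 0.963] times). The lower hypoxia target level with 2/21-trikine than with sIL-2 was found in all 14 sets of cells made with the 7 markers, with a fold between 0.667 and 0.812. The lower enzyme level with 2/21-trikine than with sIL-2 was also found in each of them, between 0.850 and 0.948 times. Each marker splits the same thinned cells, so the 14 sets overlap and are not independent of each other.

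Enzyme levels rose with the number of hypoxia targets detected in a cell, in each library. From cells with no target to cells with 5 or more, the enzymes went from 3242 to 7401 CPM with sIL-2 (2.28 [2.20, 2.37] times), from 3123 to 7003 CPM with 2/21-trikine (2.24 [2.15, 2.34] times) and from 3860 to 7492 CPM with sIL-2 + IL-21 (1.94 [1.87, 2.01] times). The transporters rose by 2.999, 2.95 and 2.93 times over the same range. *Hif1a* rose by 1.48 [1.32, 1.66] and 1.42 [1.22, 1.65] times with sIL-2 and 2/21-trikine, and with sIL-2 + IL-21 its ratio of 1.06 [0.905, 1.23] did not differ from 1 beyond counting error. *Mki67* went the other way, at 0.538, 0.431 and 0.754 times. Cells with 3 or more targets made up 26.3% [25.3, 27.3] of cells with sIL-2, 16.1% [15.5, 16.8] with 2/21-trikine and 21.6% [20.8, 22.5] with sIL-2 + IL-21. UMIs of the CD3 genes were found in 98.99%, 98.2% and 98.7% of these cells. Melanoma markers reached 36.2 and 32.97 CPM in cells with 5 or more targets with sIL-2 and 2/21-trikine, against 4.93 and 3.56 CPM in cells with none, and 1.95 against 2.15 CPM with sIL-2 + IL-21. Without cells that held a melanoma or myeloid marker UMI after thinning, the enzymes rose by 2.23, 2.20 and 1.94 times. This left 286 of 304, 174 of 182 and 249 of 257 cells with 5 or more targets. Marker UMIs lost in thinning were not counted, so cells with other-cell RNA could remain.

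**Figure D5:**
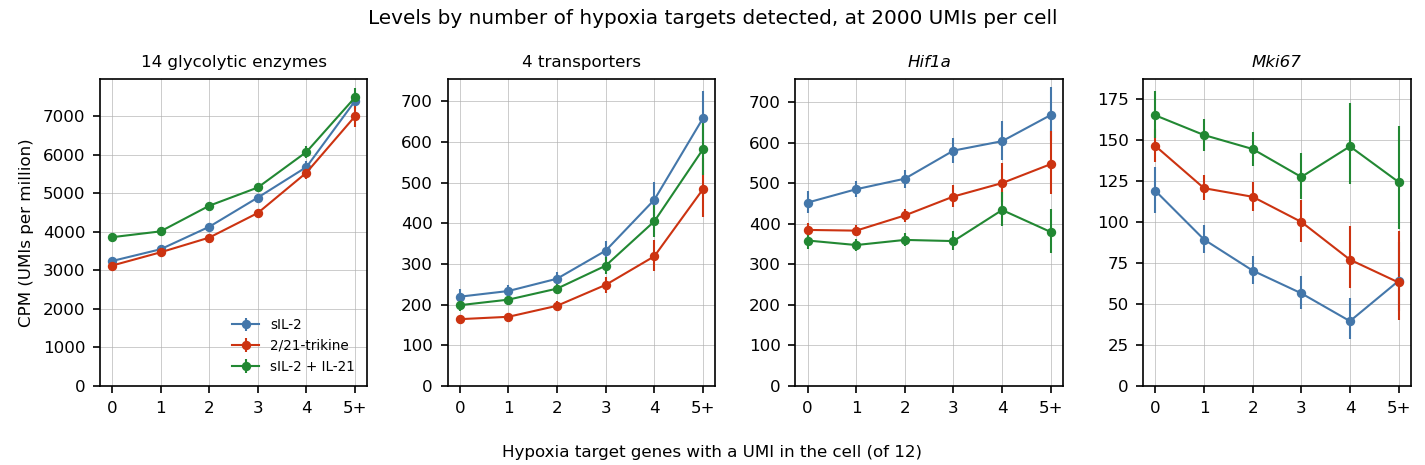
Level (CPM, with 95% counting intervals) of the 14 enzymes, the 4 transporters, Hif1a and Mki67 in cells grouped by how many of the 12 hypoxia targets had a UMI, at 2000 UMIs per cell. Enzymes and transporters rise from left to right in each library, and Mki67 is lower in cells with 5 or more targets than in cells with none.

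Single genes were compared between cells with 2 or more hypoxia targets and cells with none (for a target, counting only the other targets). Among the enzymes, 9 of 14 were higher past the fold with sIL-2, 6 with 2/21-trikine and 3 with sIL-2 + IL-21, where 1.93%, 1.63% and 1.52% of the 8813 genes tested were. The 14 include *Pfkm*, which was not among the genes tested and was not higher past the fold in any library. Genes with few UMIs pass the interval rule less easily, so these shares are a rough background only. *Tpi1* had the highest ratio of the enzymes in each library, at 1.92, 1.72 and 1.46 times, and *Hk1* was near 1.2 or below (1.23, 1.10 and 1.12 times). *Slc16a3* was higher by 2.14 [1.504, 3.12], 2.41 [1.75, 3.37] and 1.39 [1.04, 1.86] times. Among the targets themselves, *Bnip3* was 3.17 [2.48, 4.10], 2.89 [2.35, 3.58] and 2.36 [1.96, 2.87] times higher in cells with other targets. *Egln3* (3.41, 2.56 and 1.96 times) and *Ankrd37* (3.30, 2.08 and 1.76 times) were also higher. *Vegfa* had the highest ratio of the targets with 2/21-trikine (4.53 [2.06, 11.8] times) and sIL-2 + IL-21 (3.87 [1.41, 14.8] times), and 3.26 [1.02, 16.7] times with sIL-2, but these rested on 7, 4 and 3 UMIs in cells with no other target. *Ero1a* (1.90, 1.88 and 2.03 times) and *Ndrg1* (1.96, 1.76 and 1.47 times) followed, with *Ero1a* above *Egln3* and *Ankrd37* in the sIL-2 + IL-21 library. *Kdm3a* (1.42, 1.10 and 1.11 times) and *Pdk1* (1.46, 1.10 and 1.22 times) had intervals that included 1 outside the sIL-2 library. *Hilpda*, the target with the most UMIs, was higher by only 1.505, 1.39 and 1.13 times. These ratios were lower with sIL-2 + IL-21 than with sIL-2 for 10 of the 12 targets, a difference that was not tested.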

How the data were processed

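Live Thy1.1+CD8+ T cells from B16F10 tumors were profiled with 10x 3' Gene Expression v3.1 in 3 libraries. The authors deposited UMI counts per gene and cell, not normalized, in matrices limited to called cells. The file headers give Cell Ranger 9.0.0. The study's methods name a GRCm39 reference with intronic reads counted, while the submitters' processing notes name mm10, so no position from the counts is given, and promoter positions are those of a separate RefSeq table of GRCm38.p6.

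Cells with 500 to 120000 UMIs and at most 20% of UMIs from 13 mitochondrial genes were kept, as in the study's methods, without a doublet caller. UMIs were summed per library and scaled to CPM. Intervals are exact (Clopper-Pearson for shares and, conditional on the summed count, for ratios, and Poisson for levels). UMIs are counted molecules, but the intervals hold no variation between mice or libraries, and those of ratios and levels hold none between cells. Over thinned cells, the variance of the enzyme UMIs was 3.54, 2.75 and 3.05 times their mean with sIL-2, 2/21-trikine and sIL-2 + IL-21. For the hypoxia targets it was 2.36, 1.77 and 1.74 times, so cells varied by more than counting error. Intervals from the spread over cells were not computed. Genes with a mean of at least 5 CPM were tested against a log2 ratio of 0.5. Comparisons between cells used cells thinned to 2000 UMIs with a fixed seed, with shallower cells left out.

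All 33 genes are named, and of the further pathway genes the 3 highest and 3 lowest log2 ratios of each pair past 0.5. The genes, lists and cell markers were chosen with earlier results of these data known. Alternatives covered the limits on cells, scaling, weighting of cells, the filter on low genes, the fold, thinning depth and removal of cells with a *Mki67* UMI. Bins of cell depth, sets of cells by marker and removal of *Hilpda*, of shallow cells and of cells with melanoma or myeloid marker UMIs were added after seeing the data. The calls from library ratios were tested on simulated counts, and thinning was checked against the shares before it in the real cells. The other steps had no such test. Python 3.11.15, numpy 2.4.6, scipy 1.17.1, pandas 2.3.3 and matplotlib 3.10.9 were used.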

Additional observations from a re-analysis of the deposited data

How the results depend on the processing

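No paired analysis was possible because each group had 1 library. Medians over the 13 enzymes and 11 hypoxia targets tested are log2 ratios. For 2/21-trikine over sIL-2, the enzyme median of -0.36 became -0.27 with each cell weighted equally, -0.28 with median-of-ratios scaling and -0.31 with no filter on low genes, and the target median of -0.53 became -0.42, -0.45 and -0.45. The 11 genes called lower became 7 with median-of-ratios scaling and 1 at a log2 ratio of 1. For 2/21-trikine over sIL-2 + IL-21, the enzyme median of -0.33 became -0.31 with at most 40000 UMIs per cell, -0.27 without cells with a *Mki67* UMI, -0.30 with equal weights and -0.32 with no filter, and the target median of -0.37 became -0.23 with equal weights. The 6 genes called lower became 3 without *Mki67* cells, 2 with equal weights and 1 at a log2 ratio of 1. For sIL-2 + IL-21 over sIL-2, the enzyme median of 0.09 turned to -0.045 without *Mki67* cells and was 0.027 with equal weights, 0.18 with median-of-ratios scaling and 0.12 with no filter. The target median of -0.17 became -0.28, -0.40 and -0.089 under the first 3 of these settings, and the 5 genes called lower became 3 with median-of-ratios scaling and 0 at a log2 ratio of 1. That scaling moved all ratios by 0.08, -0.00 and 0.08 in the 3 comparisons, so the calls it removed were ratios near 0.5. The enzyme ratio of cells with over cells without *Mki67* before thinning was 1.09 with sIL-2, 1.08 with 2/21-trikine and 1.17 with sIL-2 + IL-21. At 5000 UMIs it was 1.03 with 2/21-trikine, above 1 where the main value was below, and 1.13 with sIL-2 + IL-21, and at 1000 UMIs it was 0.959 and 1.08. The causes of these shifts were not tested. Of 792 recomputed ratios of single genes, 590 moved by less than their counting interval, and 14, all with a main value under 0.13 in size, changed sign. With 1 library per group, variation between mice or libraries could not be measured for any comparison, and depth limited the genes under 5 CPM.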
